A study of Mus musculus with 6 samples.

Results

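Prosaposin (Psap), progranulin (Grn), the receptors Gpr37, Gpr37l1 and Sort1, and the lysosomal genes Ctsd, Ctsb and Lamp1 were followed in single nuclei of degenerating mouse retina. These 8 genes were taken by symbol from the 32285 genes counted, and all 8 were found. The retinas came from rd10 mice (strain B6.CXB1-Pde6b-rd10/J), which lose their rods because of a mutation in the rod phosphodiesterase gene Pde6b. Each retina had 1 intravitreal injection at postnatal day 18, of 20 ng recombinant IL-27 or of saline, and was collected at day 20. Each group had 3 libraries, saline replicates 1, 2 and 6 and IL-27 replicates 4, 5 and 10, all from rd10 mice, with no healthy or uninjected retina among them. The labels do not say whether each library is a separate animal, so p-values measure the spread between these libraries, which may be partly technical. Nuclear RNA was counted, so cytoplasmic mRNA and protein were outside the measurement.

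The libraries held 36678332 to 48260748 unique molecular identifiers (UMIs) in 8968 to 9965 barcodes, and any 2 libraries shared 18 to 30 barcode sequences. After filtering, 52196 nuclei were kept in 35 clusters, of which 32 were named from marker genes as 11 cell types. These were rods, cones, bipolar cells (BC), amacrine cells (AC), horizontal cells (HC), retinal ganglion cells (RGC), microglia, Muller glia, pericytes, astrocytes and endothelial cells. The 8 genes and the other lysosomal genes described here were kept out of the genes used for clustering. The 11 microglial markers summed to 3745 to 4066 CPM (the UMIs of a gene scaled to the same total in every library and type) in microglia of the 6 libraries and to 45.2 to 226 CPM in the other types. Xist stood at 2028 CPM in saline replicate 2 and 1999 CPM in IL-27 replicate 5 and at 0.408 CPM or less in the other libraries, so 1 library per group differed in this way.

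Prosaposin is the precursor of the saposins, small proteins that present sphingolipids to the hydrolases of the lysosome. The precursor is also secreted, and as a secreted protein it is a neurotrophic factor for which GPR37 and GPR37L1 are proposed receptors. Progranulin is a secreted growth factor and lysosomal protein that binds prosaposin, and sortilin, the product of Sort1, carries it from the cell surface to the lysosome. Cathepsin D (Ctsd) cleaves prosaposin into saposins, cathepsin B (Ctsb) is a cysteine protease that acts in the same compartment, and LAMP1 is an abundant protein of the lysosomal membrane. Microglia, the resident phagocytes of the retina, clear dying photoreceptors through lysosomes, and Muller glia are the radial glia that span the retina.

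Many lysosomal genes carry in their promoters the letters CACGTG, the core of the element bound by TFEB, the transcription factor that drives lysosomal genes. RefSeq promoter sequences (GRCm38.p6, 250 bases before to 50 bases after a start) were found for 6 of the 8 genes, in 7 entries. CACGTG, which reads the same on both strands, was found in the windows of Lamp1 and Ctsd. The Lamp1 window held 4 copies, which began 61, 45, 28 and 15 bases before the start. The Ctsd window held 2 copies, which began 245 and 98 bases before the start. The starts are those of RefSeq. For Ctsd, Grn, Gpr37 and 1 of the Psap entries they lie inside the GENCODE M21 gene positions given below. The second Ctsd copy lies inside that gene too. Among all 32851 promoters of the same length, 7.15% held at least 1 copy, 0.594% held at least 2, and 8 promoters (0.0244%) held at least 4. The longer form TCACGTGA, which contains the shorter one, was found in Ctsd alone among the 7 entries and in 0.974% of all promoters. The stretches with the motif, from the lysosomal genes that hold it, follow with CACGTG in capitals.
Lamp1, chr8:13159088-13159160, + strand: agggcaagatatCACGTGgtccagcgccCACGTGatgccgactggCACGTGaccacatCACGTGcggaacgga
Ctsd, first copy, chr7:142388055-142388077, - strand: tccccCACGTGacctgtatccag
Ctsd, second copy, chr7:142387908-142387937, - strand: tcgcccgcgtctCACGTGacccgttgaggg
The windows of Grn, Gpr37 and Gpr37l1 and both windows of Psap held no match to these letters. A match is a description of the letters and was not tied to binding by any measurement here.

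Psap (ENSMUSG00000004207, chr10:60277627-60302597, + strand, GRCm38) was highest in microglia. Its level there was 1056, 1240.4 and 1333 CPM with saline (replicates 1, 2 and 6, the order used throughout) and 1109, 1631 and 1602 CPM with IL-27 (replicates 4, 5 and 10). In every library microglia stood above each other cell type, as the lowest microglial value was 1056 CPM and the highest value elsewhere was 361 CPM. Endothelial cells followed at 238 ± 76.4 CPM (SD, n = 6 libraries, as for all levels below), then Muller glia at 189.9 ± 13.4, astrocytes at 192 ± 37.6, pericytes at 182 ± 48.0 and rods at 173 ± 24.5 CPM. The order is that of the mean of log2(CPM + 1). Neurons of the inner retina and cones were lowest, from 143 ± 8.46 CPM in AC to 109 ± 15.2 CPM in HC. Psap UMIs were counted in every cell type, with a microglial mean of 1329 ± 243 CPM, and the part of free RNA in the lower levels was not tested.

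Grn (ENSMUSG00000034708, chr11:102430315-102437048, + strand) had the same cell type at the top. Microglia held 277, 404 and 312 CPM with saline and 323, 396 and 490.4 CPM with IL-27. The next type was endothelial cells at 60.1 ± 28.5 CPM, followed by Muller glia at 42.1 ± 10.4 CPM. AC, RGC, BC and HC were at 13.7 to 15.3 CPM on average. Endothelial cells, pericytes and astrocytes rest on 38, 13 and 38 UMIs of Grn in all, so their order is loose. Grn overlaps Fam171a2 on the opposite strand in GENCODE M21, and whether the counting used strand is not given in the sources used here.

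The receptors did not share this pattern. Gpr37 (ENSMUSG00000039904, chr6:25665878-25690729, - strand) was highest in Muller glia, at 404, 487 and 459 CPM with saline and 459, 479 and 352 CPM with IL-27. Rods came next at 65.6 ± 9.10 CPM, and microglia held 42.8 ± 7.15 CPM. The lowest levels by the log2 mean were those of HC, at 12.9 ± 4.11 CPM, and of pericytes, which had 9 UMIs in all. The 8 Muller markers summed to 532 to 677 CPM in microglia, with none at 0, and to 4958 to 5673 CPM in Muller glia, and their part in the microglial Gpr37 counts was not tested.

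Gpr37l1 (ENSMUSG00000026424, chr1:135160234-135167681, - strand), the close relative of Gpr37, was highest in astrocytes at 30.7 ± 14.8 CPM, on 36 UMIs. Muller glia held 2.35, 4.03 and 3.23 CPM with saline and 3.18, 3.14 and 3.30 CPM with IL-27. All other types were lower, from 2.64 ± 3.05 CPM in microglia downward, on 9 UMIs or on 0 to 26 UMIs elsewhere. No UMI was found in HC, endothelial cells or pericytes, which allows levels of up to 0.614, 4.49 and 8.85 CPM (3 counts over the type's total, counting error only). The paralogs therefore had different cell types at the top, Muller glia for Gpr37 and astrocytes for Gpr37l1.

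Sort1 (ENSMUSG00000068747, chr3:108284082-108361511, + strand) was highest in HC, at 154 ± 11.5 CPM with a range of 135 to 166 CPM. Muller glia followed at 101 ± 4.90 CPM, then pericytes at 109.8 ± 57.8 CPM on 35 UMIs and RGC at 73.0 ± 10.5 CPM. Microglia were ninth of 11 types at 52.7 ± 11.1 CPM, and cones were lowest at 36.1 ± 1.87 CPM. The receptor that takes up progranulin was thus low in the cells with the most Grn RNA. Sort1 overlaps Gm12523 on the opposite strand.

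The lysosomal genes followed the ligands. Ctsd (ENSMUSG00000007891, chr7:142375911-142388038, - strand) stood in microglia at 939, 1267 and 1298 CPM with saline and at 871, 1212 and 1566 CPM with IL-27. Ctsb (ENSMUSG00000021939, chr14:63122462-63145923, + strand) stood there at 758, 1065 and 1044 CPM with saline and at 833, 1325 and 1345 CPM with IL-27. Lamp1 (ENSMUSG00000031447, chr8:13159161-13175338, + strand) stood there at 242, 337 and 329 CPM with saline and at 317, 313 and 337 CPM with IL-27. Microglia led for all 3 genes, and astrocytes came second, at 287 ± 67.9 CPM for Ctsd, 156 ± 27.9 CPM for Ctsb and 141 ± 33.9 CPM for Lamp1. For Lamp1 the second place is loose. Astrocytes were above endothelial cells by a mean log2 of 0.017 ± 0.66, in 3 of 6 libraries, and endothelial cells were second when all nuclei were summed. HC were lowest for all 3, at 30.7 ± 5.43, 42.5 ± 9.04 and 33.1 ± 3.10 CPM in the same order. Lamp1 had the smallest step at the top, a mean log2 difference of 1.17 ± 0.27 between microglia and astrocytes, against 2.05 ± 0.45 for Ctsd and 2.75 ± 0.39 for Ctsb. Ctsb overlaps Fdft1 and Lamp1 overlaps Grtp1, both on the opposite strand.

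**Figure D1:**
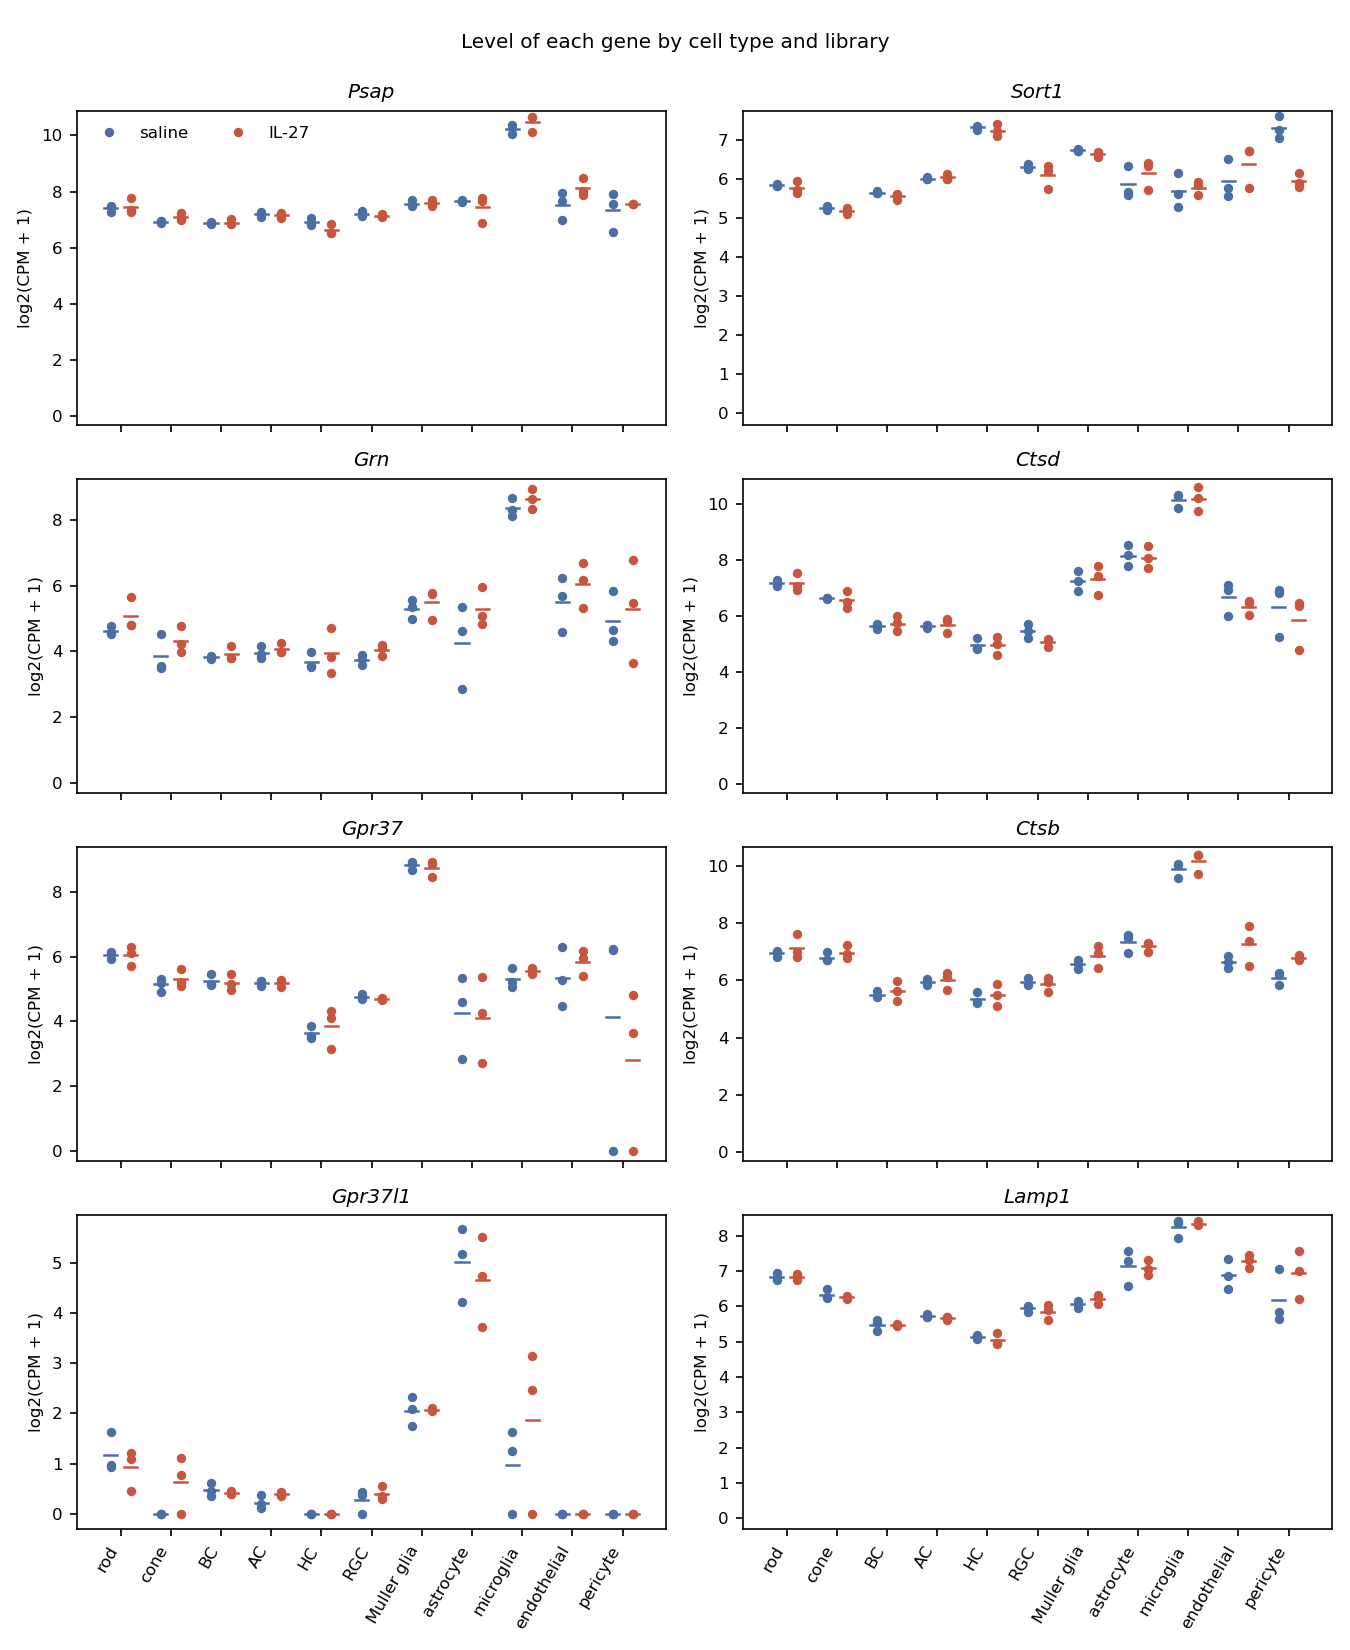
Level of each of the 8 genes as log2(CPM + 1) (vertical axis) in the 11 cell types (horizontal axis), with 1 point per library, saline in blue and IL-27 in red, and a bar at each group mean. Microglia are at the top for Psap, Grn, Ctsd, Ctsb and Lamp1, Muller glia for Gpr37, astrocytes for Gpr37l1 and HC for Sort1.

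The step from the first to the second cell type held in 6 of 6 libraries for each of the 8 genes. The exact paired permutation test (two-sided, sign flips over 6 libraries) gave p = 0.03125 for each of these steps, the smallest p this design allows. None of the 80 neighbour pairs, 10 per gene, passed after adjustment over a gene's 10 pairs, which takes 7 pairs at the smallest p, so no neighbours in the orders are shown to differ by that test. The type at the top was the same for all 8 genes when nuclei were thinned to 1000 UMIs, when the cells were regrouped and when any 1 library was left out. Further down the orders many neighbours were within the spread, such as AC and RGC for Psap, which differed by a mean log2 of 0.00050 ± 0.043, and BC and AC for Ctsd, at 0.012 ± 0.12.

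Over the 11 cell types, the levels of Psap and Grn had a Pearson r of 0.97, and those of Ctsd and Ctsb 0.96. Psap had r of 0.94 with Ctsb, 0.87 with Ctsd, 0.86 with Lamp1, 0.16 with Gpr37 and -0.20 with Sort1. These values describe 11 points taken from the same 6 libraries, in which 1 point, microglia, lies far from the rest. Among 15132 genes at 10 CPM or more in some cell type, those most like Psap were Stk4, Tbk1, Xlr, Aftph and Tuba1c, with r from 0.98 to 0.99. Those most like Grn were Tnfaip2, Gdi2, Rab8b, Cdk9 and Psap itself, at 0.97 to 0.99. The nearest genes to Gpr37 were Aqp4, the water channel of Muller glia and one of the markers used to name them, and Calca, at 0.97 and 0.95. The nearest to Gpr37l1 were Cmtm5 and Serpina3n, both at 0.98, and to Sort1 Galnt18 and Ankrd10, at 0.94 and 0.89. For Ctsd they were Abl1 and Zc3h12a, for Ctsb Aftph and Tuba1c, and for Lamp1 Tm9sf2 and Nfe2l2, with r from 0.96 to 0.98.

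The nuclei called AC held the largest share of the Psap UMIs. They had 31.2 ± 2.47% of a library's Psap UMIs in named types, BC 15.6 ± 2.31%, microglia 14.4 ± 4.89%, Muller glia 12.0 ± 1.13% and rods 11.1 ± 2.76% (SD, n = 6 libraries). Microglia made up 3.22% of the nuclei and 1.83% of all UMIs, below their share of the Psap UMIs. Free RNA in droplets can add UMIs to any nucleus, and the 11 microglial markers summed to 161 to 213 CPM in AC against 3745 to 4066 CPM in microglia, so the shares count UMIs found in nuclei of a type, and the part of free RNA in them was not tested. Rods made up 30.8% of the nuclei and 10.6% of all UMIs. The microglial share of Psap UMIs was 12.3, 12.3 and 10.5% with saline and 13.3, 24.1 and 14.0% with IL-27. All 3 IL-27 libraries were above all 3 saline libraries, with means of 17.1 ± 6.04% and 11.7 ± 1.07% (exact permutation test, two-sided, p = 0.1, the smallest that 3 against 3 allows, adjusted p = 0.55 over 11 types). How often the microglial share of other genes separates the groups was not counted, so this is no result about Psap in particular. The level of Psap in microglia overlapped between the groups. The microglial share of nuclei was also higher with IL-27, at a mean of 3.61% against 2.84% with saline, and its part in this difference was not tested. IL-27 replicate 5 had 450 microglial nuclei against 187 to 292 in the other libraries, and without it the difference was 1.96 percentage points in place of 5.44. At clustering resolution 0.5 this library had 323 microglial nuclei, against 147 to 232 in the others. An unnamed cluster there, with Stat4, Skap1, Klrk1 and H2-Aa among its top genes, held 95 of its nuclei, against 17 to 56 elsewhere. Whether those nuclei were among the 450 was not tested.

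**Figure D2:**
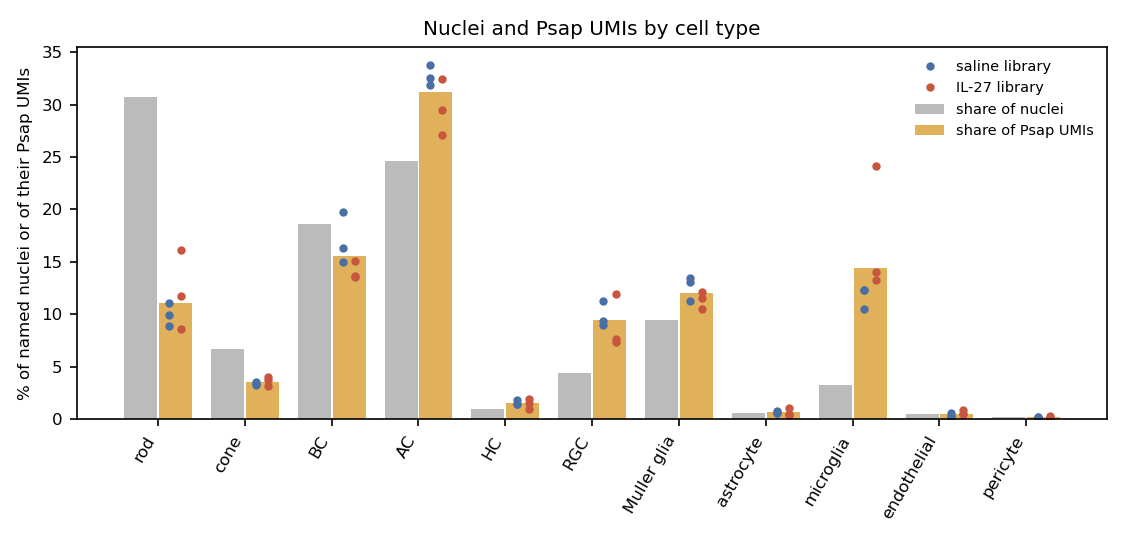
Share of named nuclei (grey bars) and of their Psap UMIs (yellow bars) in each cell type, as means over 6 libraries in percent, with the share of Psap UMIs in each library as points, saline in blue and IL-27 in red. Microglia hold 3.22% of the nuclei and 14.4% of the Psap UMIs, and the highest microglial point, at 24.1%, is IL-27 replicate 5.

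The comparison the study was designed for, IL-27 against saline, called none of the 8 genes in microglia. Every fitted change was above 0 but within about 1.5 standard errors of it. Psap had a log2FC of 0.26 ± 0.18 (SE), Grn of 0.28 ± 0.19 and Ctsb of 0.29 ± 0.20. Gpr37 was at 0.25 ± 0.26, Lamp1 at 0.09 ± 0.17, Sort1 at 0.08 ± 0.26 and Ctsd at 0.05 ± 0.21, and Gpr37l1 had too few counts to be tested. All 7 adjusted p-values were 0.9999 (edgeR, quasi-likelihood test, adjusted over 9067 genes by Benjamini-Hochberg). Of those 9067 genes, 0 (0%) were called, unadjusted p-values under 0.05 were found for 130 with higher and 150 with lower values, and DESeq2 called 1. The libraries of the groups overlapped for each of the 8 genes in microglia, where 8.49% of all genes with at least 10 UMIs did not overlap. Without saline replicate 1 the values of Ctsd and Lamp1 were below 0, as was Ctsd without IL-27 replicate 10 and Sort1 without saline replicate 2 (lowest values -0.16 for Ctsd, -0.06 for Lamp1 and -0.08 for Sort1). With standard errors of 0.17 to 0.26, changes of the fitted size were not detectable with 3 libraries a group.

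In Muller glia none of the 8 genes was called either. Ctsb had the largest change, from 84.2, 103.5 and 95.2 CPM with saline to 86.6, 146 and 122.3 CPM with IL-27, a log2FC of 0.33 ± 0.16 (adjusted p = 0.949). Psap was at 178, 185 and 205 CPM with saline and at 187, 208 and 177 CPM with IL-27, a log2FC of 0.011 ± 0.11 that was below 0 without saline replicate 1, saline replicate 2 or IL-27 replicate 5. Gpr37, whose level was highest in these cells, had a log2FC of -0.06 ± 0.13, and of 0.08 without IL-27 replicate 10. Grn was at 0.23 ± 0.21, Lamp1 at 0.15 ± 0.11, Ctsd at 0.10 ± 0.22, Gpr37l1 at 0.014 ± 0.34 and Sort1 at -0.10 ± 0.10. Of 13664 genes tested, 0.0366% were called, and 418 with higher and 248 with lower values had an unadjusted p under 0.05. Sort1 was the 1 gene of the 8 whose groups did not overlap, at 106, 104.04 and 104.01 CPM with saline and 102, 99.2 and 92.7 CPM with IL-27, where 10.3% of all genes with at least 10 UMIs did not overlap.

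The change with IL-27 was also compared between the 2 glial types, with the library as a block. None of the 7 genes tested was called, and 0.0140% of 14312 genes were, while an unadjusted p under 0.05 was found for 209 positive and 432 negative values. The interaction was 0.22 ± 0.18 for Psap and 0.26 ± 0.27 for Gpr37, larger in microglia, and between -0.06 and 0.17 for the other 5.

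Summed over all kept nuclei of a library, where fewer nuclei of a type and less RNA per nucleus cannot be told apart, none of the 8 genes was called among 20359 (0% called, 21 by DESeq2, and an unadjusted p under 0.05 for 269 positive and 306 negative values). Grn had a log2FC of 0.32 ± 0.15 and Ctsb of 0.30 ± 0.15, neither past the test. Grn stood at 20.9, 25.5 and 21.3 CPM with saline and 22.7, 34.5 and 27.7 CPM with IL-27, so the groups overlapped. Lamp1 was the 1 gene without overlap, at 63.3, 62.7 and 63.2 CPM with saline and 67.1, 65.0 and 67.3 CPM with IL-27 (log2FC 0.07 ± 0.06), where 8.21% of all genes with at least 10 UMIs did not overlap.

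**Figure D3:**
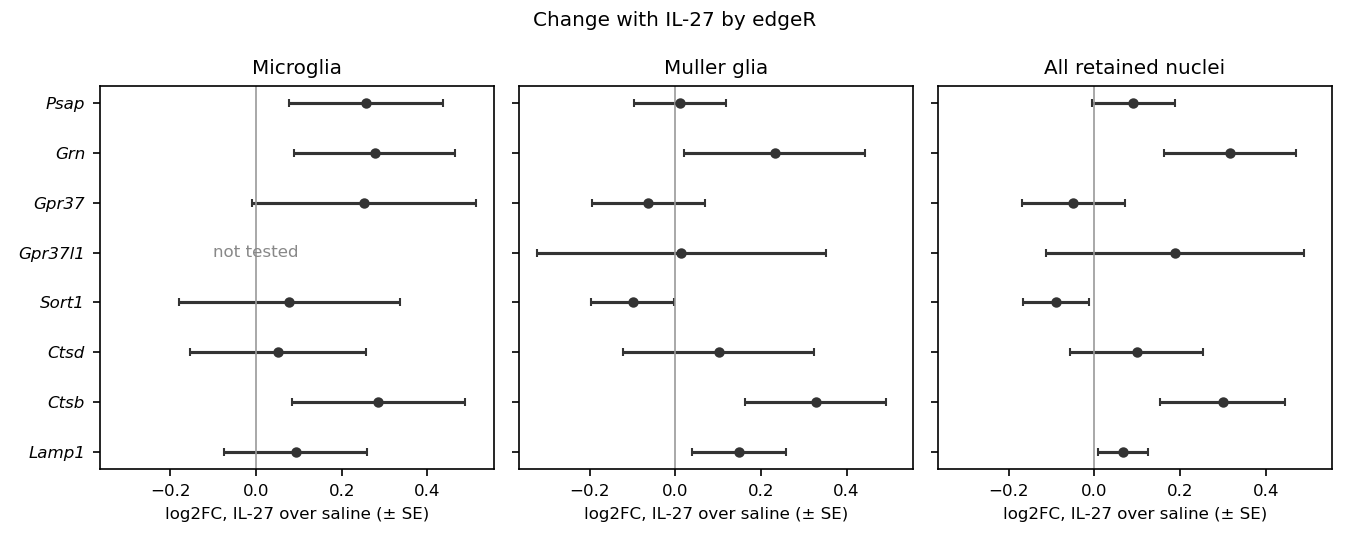
Change of each gene with IL-27 as log2FC over saline (horizontal axis, edgeR, bars are 1 SE, 3 libraries a group) in microglia, Muller glia and the whole retina. The points for microglia lie between 0.05 and 0.29 and those for Muller glia between -0.10 and 0.33, and no gene passed an adjusted p of 0.05.

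In the other 9 cell types, 51 of the 72 pairs of gene and type had enough counts to be tested, and none was called. The called share of all genes was 0.00739% in rods, 0.00588% in AC and 0% in cones, BC, HC, RGC, astrocytes, endothelial cells and pericytes. Of the 51 pairs, 2 had an unadjusted p under 0.05. Grn in rods stood at 22.9, 26.2 and 22.1 CPM with saline and 26.7, 48.9 and 27.0 CPM with IL-27 (log2FC 0.47 ± 0.21, adjusted p = 0.9999). Ctsd in RGC stood at 36.6, 43.6 and 52.5 CPM with saline and 29.0, 33.7 and 35.9 CPM with IL-27 (log2FC -0.41 ± 0.15, adjusted p = 0.9999). The 51 values ran from -0.41 to 0.70 with a median of 0.0062, and 27 were above 0. The groups did not overlap in 6 of the 72 pairs, and in 9.12% of all pairs of gene and type with at least 10 UMIs. The 72 pairs had no such limit and include pairs with no UMI, so the 2 shares are not strictly alike. The 6 pairs were Psap in cones, Grn in rods and Ctsb in pericytes, higher with IL-27, and Sort1 in BC and in pericytes and Ctsd in RGC, lower. IL-27 replicate 5 was the highest of the 6 libraries in 5 of the 10 types other than microglia for each of Psap, Grn and Ctsb. It was highest in 4 for Sort1 and for Ctsd, in 2 for Gpr37, in 0 for Lamp1 and in 0 of 7 for Gpr37l1. The same count was not made over all genes. The summed microglial markers of that library were the highest of the 6 in rods, at 175 CPM, and the lowest in AC, at 161 CPM, and in endothelial cells, at 45.2 CPM. What sets this library apart was not tested.

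The wider lysosomal pathway was followed with 127 genes in 8 lists, which hold the partners of prosaposin and progranulin, sphingolipid hydrolases, other proteases, other hydrolases, membrane proteins, the V-ATPase proton pump, the mannose-6-phosphate sorting route and the lysosomal transcription factors and regulators. With IL-27, 0 of the 117 tested were called in microglia, 0 of 121 in Muller glia and 0 of 126 in the whole retina, and 3, 2 and 5 had an unadjusted p under 0.05. The median log2FC of the lists was 0.060 in microglia and 0.039 in Muller glia, beside 0.0016 and 0.0022 over all genes. The genes with the smallest p in microglia were Scpep1, a lysosomal carboxypeptidase, at 44.5, 41.5 and 46.4 CPM with saline and 67.5, 74.5 and 72.3 CPM with IL-27 (log2FC 0.70 ± 0.21), and the sulfatase gene Galns (0.74 ± 0.28). On the other side were Rraga, a GTPase of the mTORC1 pathway, at -0.80 ± 0.33, and Arsb, the gene of arylsulfatase B, at -0.37 ± 0.19. In Muller glia they were the protease gene Ctsh (0.38 ± 0.14) and the sortilin relative Sorcs2 (0.30 ± 0.12), and with negative values the proton pump subunit Atp6v1g1 (-0.35 ± 0.16) and Ctsk (-0.81 ± 0.44). All of these had adjusted p-values of 0.949 or more. For the interaction they were Scpep1 (0.88 ± 0.34) and Atp6v0d2 (3.23 ± 1.42), with positive values, and Arsb (-0.62 ± 0.21) and Sorcs2 (-1.01 ± 0.37), with negative ones, all at an adjusted p of 1. Atp6v0d2 stood at 0.21 ± 0.30 CPM in Muller glia, with 0 in each IL-27 library, so its value rests on counts near 0.

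Between the glial types the differences were far larger than the spread between libraries. Within the same libraries, microglia held more Ctsb (log2FC 2.87 ± 0.09, 7.31-fold), Grn (2.68 ± 0.09, 6.43-fold), Ctsd (2.46 ± 0.09, 5.50-fold), Psap (2.34 ± 0.10, 5.08-fold) and Lamp1 (1.72 ± 0.09, 3.30-fold) than Muller glia, each in 6 of 6 libraries. They held less Gpr37 (-3.78 ± 0.12, 13.8-fold lower) and less Sort1 (-1.40 ± 0.12, 2.64-fold lower), again in 6 of 6. All 7 genes tested passed (edgeR with the library as a block, largest adjusted p = 1.94e-09, for Sort1), where 35.3% of 12975 genes were called higher and 35.2% lower, so a call alone says little and the sizes are the description. The 11 microglial markers summed to 176 to 226 CPM in Muller glia, and 20 neuronal and photoreceptor genes to 3229 to 5411 CPM in microglia and 3156 to 3722 CPM in Muller glia, and their part in these differences was not tested. Gpr37l1, with 9 UMIs in microglia and 71 in Muller glia, could not be tested. Scaling by library totals in place of TMM moved the median of all genes from 0.016 to 0.47, a shift of 0.45, with 6819 genes higher and 3143 lower (68.5% higher) in place of 4581 and 4566 (50.1%), and the 7 genes kept their direction and call.

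Most of the lysosomal lists lay on the side of Psap and Grn. Of 124 genes tested, 89 were higher in microglia, 15 were lower and 20 were not called, with a median log2FC of 0.88 beside 0.016 over all genes. Over all 12975 genes, 35.3% were called higher and 35.2% lower. All 12 transcription factors and regulators were higher, among them the genes of TFEB and its relatives MITF, TFE3 and TFEC, and so were 17 of 19 V-ATPase genes. Among the genes with the smallest p were the proteases Ctss (cathepsin S), at 1116 ± 151 CPM in microglia against 10.7 ± 4.04 CPM in Muller glia (75.7-fold), and Lgmn (legumain, 17.4-fold). Of the partners of prosaposin and progranulin, 3 of 10 were higher and 5 lower, and whether these counts differ from the shares over all genes was not tested. The 3 lower genes with the smallest p were relatives of sortilin, Sorcs1 at 72.9 ± 42.3 CPM in microglia against 4173 ± 298 CPM in Muller glia (78.5-fold lower), Sorcs2 (10.6-fold lower) and Sorl1 (2.88-fold lower). With library totals, 6 genes of the lists were lower in place of 15. The folds are from the TMM-scaled fit and the CPM values are scaled by totals alone, so their ratios differ from the folds.

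**Figure D4:**
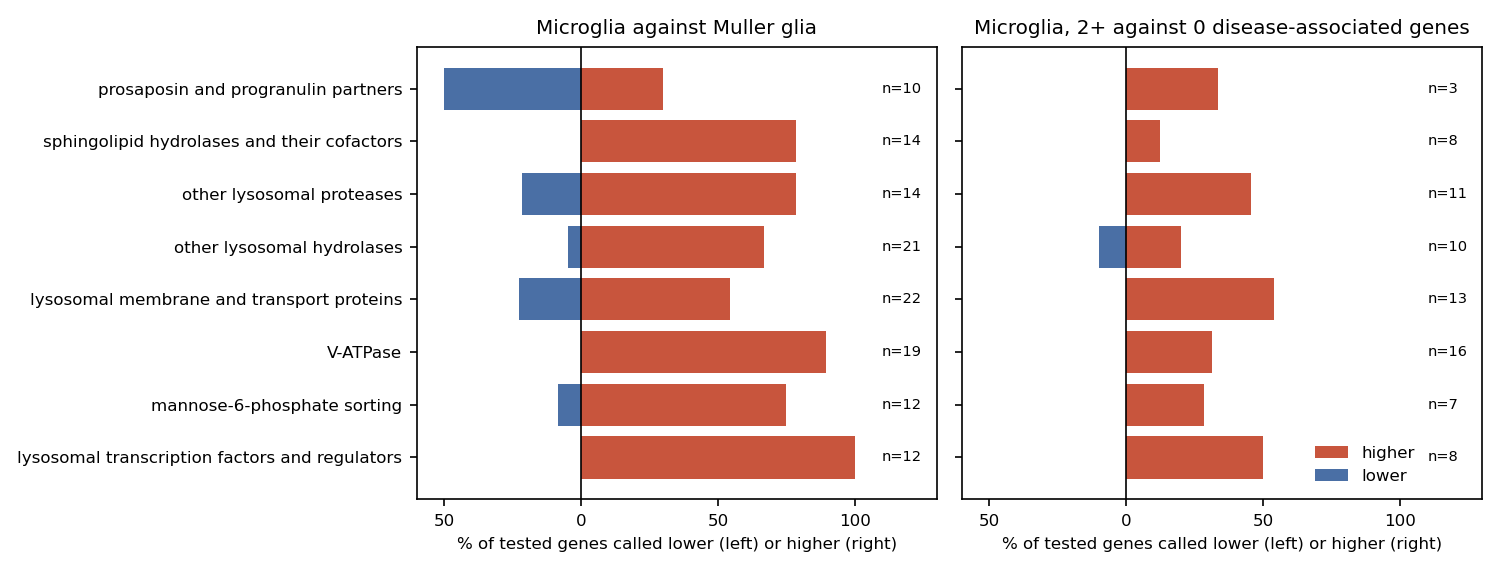
Percent of the tested genes of each of the 8 lysosomal lists that were called higher (right, red) or lower (left, blue) at an adjusted p under 0.05 by edgeR, with the number tested beside each bar. All 12 transcription factors and regulators and 17 of 19 V-ATPase genes were higher in microglia than in Muller glia, while 5 of 10 partners of prosaposin and progranulin were lower. Over all genes tested between these glial types, 35.3% were called higher and 35.2% lower.

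Within the nuclei named microglia, the ligands and lysosomal genes differed between classes cut by genes of the disease-associated state. This is the profile that microglia take on around dying neurons. The 1580 microglial nuclei summed for the comparisons, of 1621 kept, were split by how many of 10 genes of this state they showed (Cst7, Lpl, Itgax, Axl, Csf1, Ch25h, Igf1, Spp1, Cd9 and Gpnmb), none of which is among the 8. At least 2 were found in 718 nuclei and none in 339, and 523 nuclei with exactly 1, which lie next to the cut, were set aside. The classes are ranges of a count and not cell types, and they differed in depth, with medians of 2430 and 1691 UMIs per nucleus. At clustering resolution 0.5, 1265 nuclei were named microglia. An unnamed cluster of 238 nuclei there had Stat4, Skap1, Klrk1 and H2-Aa among its top genes. The classes were not formed again at that resolution, so the part of cells other than microglia in either class was not tested. Genes that rise together with the 10 differ between such classes by the way they were cut. The comparison thus describes which genes go with the 10 and is not an independent test. Free RNA and neuronal counts were not compared between the classes.

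Ctsd stood at 1474, 1672 and 1910.5 CPM with saline and 1242, 1604 and 2075 CPM with IL-27 in nuclei with at least 2 genes. In nuclei with none it stood at 470.2, 352 and 551 CPM and at 432, 435 and 531 CPM in the same order. The lowest value of the first class was above the highest of the other, and the log2FC was 1.79 ± 0.13 (3.47-fold, adjusted p = 6.92e-08). Psap stood at 1419, 1357 and 1624 CPM with saline and 1261, 1809.6 and 1959 CPM with IL-27 in nuclei with at least 2 genes, and at 647, 844 and 911 CPM and 739, 1138 and 750.1 CPM in nuclei with none. Its log2FC was 0.87 ± 0.13 (1.83-fold, adjusted p = 0.000208), and it was higher in 6 of 6 libraries. Ctsb (1.478 ± 0.143, 2.79-fold, adjusted p = 1.56e-06), Grn (0.87 ± 0.15, 1.82-fold, adjusted p = 0.00091) and Lamp1 (0.78 ± 0.16, 1.72-fold, adjusted p = 0.00285) were higher in 6 of 6 libraries too.

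The receptors were not called between these classes. Sort1 had a log2FC of 0.34 ± 0.29, on 117 and 29 UMIs, and Gpr37 of -0.41 ± 0.37, on 80 and 33 UMIs, and Gpr37l1, with 3 UMIs and 1, was not tested. Of the 7 genes tested 5 were called higher, where 6.12% of 4622 genes were called higher and 5.02% lower. After each nucleus was thinned to 1000 UMIs and the classes were formed again, the same 5 genes were higher in 6 of 6 libraries, with mean log2 ratios of 1.62 ± 0.28 for Ctsb, 1.55 ± 0.28 for Ctsd, 1.21 ± 0.20 for Psap, 1.13 ± 0.36 for Lamp1 and 0.81 ± 0.25 for Grn (SD, n = 6).

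**Figure D5:**
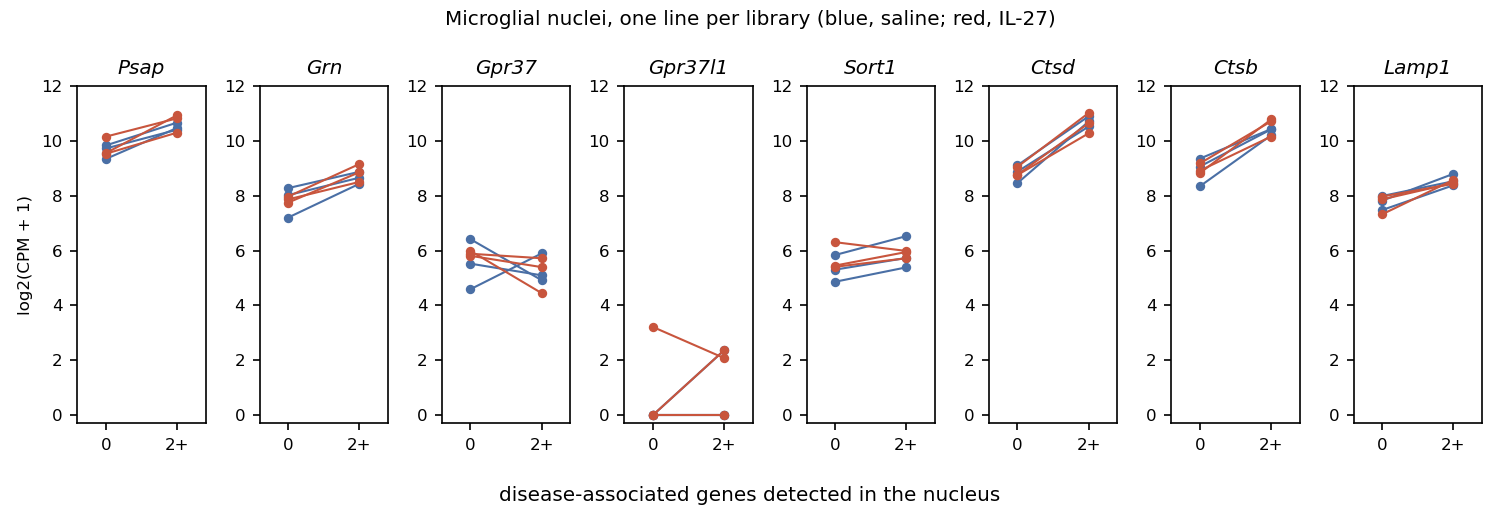
Level of each gene as log2(CPM + 1) (vertical axis) in microglial nuclei with 0 or with at least 2 of the 10 disease-associated genes (horizontal axis), with 1 line per library, saline in blue and IL-27 in red. All 6 lines rise for Psap, Grn, Ctsd, Ctsb and Lamp1, with means of 462 CPM against 1663 CPM for Ctsd, and the lines of Gpr37 and Gpr37l1 cross.

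Of the lysosomal lists, 27 of 76 genes tested were higher in nuclei with at least 2 disease-associated genes and 1 was lower, with Gpnmb left out because it formed the classes. DESeq2 called 13 higher and 0 lower. Over all 4622 genes, edgeR called 6.12% higher and 5.02% lower. The median log2FC of the lists was 0.43 beside -0.034 over all genes. The proteases Ctsz, Lgmn, Tpp1, Ctsl and Ctsa made 5 of 11, the membrane proteins 7 of 13 and the transcription factors and regulators 4 of 8. The genes with the smallest p were Fnip2, a partner of folliculin in nutrient sensing at the lysosome (1044 ± 178 against 262 ± 67.7 CPM, 3.90-fold), the tetraspanin gene Cd63 (376 ± 81.4 against 130.5 ± 37.2 CPM, 2.85-fold) and Lrp1, a receptor through which prosaposin is taken up (454 ± 61.5 against 160 ± 46.7 CPM, 2.86-fold). The lower gene was Arsb (1.53-fold, adjusted p = 0.0216), a call that was lost with DESeq2, with no filter on low counts, with the cut at 1 gene and without saline replicate 1, 2 or 6 or IL-27 replicate 10. Without IL-27 replicate 5, which gave 205 of the 718 nuclei, 15 genes of the lists were higher in place of 27, and the 5 called among the 8 were again 5.

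A cluster of 685 nuclei came mostly from saline libraries, with 233, 221 and 107 nuclei from saline and 12, 8 and 104 from IL-27 libraries. It was picked out by its mean level of Fbln1, Frmpd4, Reln and Csmd3, the genes of a Muller glia subpopulation in this study. Among the marker classes it scored highest for Muller glia (mean marker z-score 1.37). The marker rule dropped that name, as the astrocyte marker Gja1 and no Muller marker was among its top genes by fold. Other top genes included Slc6a13, Zic4, Optc and Slc13a4. The cluster thus had no cell type name and was kept apart from Muller glia above. In the 3 saline libraries, Gpr37 stood there at 40.8, 41.5 and 49.5 CPM against 404, 487 and 459 CPM in the Muller glia of the same libraries (log2FC -3.48 ± 0.13, 11.2-fold lower, adjusted p = 2.46e-14). Ctsd stood at 256, 273 and 317 CPM against 118, 195 and 152 CPM (0.77 ± 0.12, 1.70-fold higher, adjusted p = 3.01e-05). The cluster thus had little of the receptor gene that was highest in Muller glia, and more Ctsd. Psap was at 186, 168 and 210.4 CPM against 178, 185 and 205 CPM (-0.12 ± 0.11), and Grn, Sort1, Ctsb and Lamp1 were between -0.28 and 0.28 and were not called. Here 21.9% of 12876 genes were called higher and 21.9% lower. Of the lysosomal lists 25 genes were higher and 18 lower of 117, led by Lipa (lysosomal acid lipase, 4.22-fold), Ctsh (2.73-fold) and Laptm4b (2.89-fold) on the higher side and by Sorl1 (14.0-fold), Sorcs1 (3.28-fold) and Sorcs2 (11.2-fold) on the lower side.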

How the data were processed

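Single-nucleus RNA-seq (10x 3′ chemistry) was done on flash-frozen rd10 retinas, with 3 saline and 3 IL-27 libraries grouped by their labels. The deposited files hold raw UMI counts per gene and barcode, which the authors made with Cell Ranger (9.0.1 per the labels, another version in the file headers), with Seurat 5.2.1 for their analysis. The genome build of the counts is not given in the sources used here. Gene positions are from GENCODE M21 (GRCm38), in which 99.8% of the gene IDs were found, and promoters are from RefSeq (GRCm38.p6).

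Of 56634 barcodes, 56205 passed limits of over 500 UMIs, 200 or more genes and a mitochondrial share below 5%. Doublets were removed by Scrublet score at an expected rate of 8% less the share expected within types, 4009 in all. Nuclei were clustered with scanpy 1.11.5 on 2000 variable genes, 25 components and 20 neighbours at resolution 0.25, without the 8 genes or the lysosomal lists. A cluster took the class with the highest mean marker z-score, where at least 3 of its markers, each in 10% of nuclei, stood above the mean of clusters. The name was dropped where another class had more markers among the cluster's top 10 genes by fold. It was also dropped where depth was low and no own marker was among those genes. In all, 3 clusters with 1942 nuclei stayed unnamed. The 51299 nuclei whose log total count lay within 2 median absolute deviations of the median were summed per library and type. CPM is the summed count over the type's total in that library. Folds and log2FC come from the fits with TMM scaling, so they need not equal the ratio of the CPM values printed beside them.

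The sums were tested with edgeR 4.0.16 (R 4.3.3; TMM, quasi-likelihood test, minimum count 10, Benjamini-Hochberg adjustment over all genes tested, threshold 0.05), with the library as a block between cell types or classes. DESeq2 1.42.0, other scalings and filters, other clusterings and leaving out each library were the alternatives. Exact permutation tests used scipy 1.17.1. The fits were tested on simulated data. The genes named from the lists were up to 3 per direction with the smallest adjusted p, or 2 by unadjusted p where none passed (1 gene so chosen is not reported here), and the genes most like a member were the 5 or 2 with the highest correlation. The 8 genes and the lists were chosen with earlier results of these data known. Intervals and limits for 0 counts cover counting error only.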

Additional observations from a re-analysis of the deposited data

Results flagged for a closer look

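The unnamed clusters other than the saline-enriched one entered no comparison, and they held UMIs of 7 of the 8 genes above the 3 counts that a count of 0 allows. These were 710 UMIs of Psap, 487 of Sort1, 340 of Ctsb, 311 of Ctsd, 284 of Lamp1, 178 of Gpr37 and 67 of Grn in clusters used in no comparison, and Gpr37l1 had 3. As levels, Psap stood there at 126 ± 15.3 CPM and Sort1 at 86.7 ± 15.1 CPM (SD, n = 6 libraries).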

How the results depend on the processing

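Of 1111 values computed for 97 results under other settings, 1026 kept their direction, their side of the threshold and, for counts of genes, a size within 1.5 times. The number called among the 8 genes was the same under the alternatives run, at 0 in each comparison of IL-27 with saline, 7 between microglia and Muller glia and 5 between the microglial classes. For the saline-enriched cluster it was 2, and 3 with library totals or without the filter on low counts. The standard error of 3 libraries a group limits the IL-27 comparison, and cell types with few nuclei limit the orders. No paired analysis was possible because the groups share no replicate number. The cause of the changes that follow was not tested.

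With DESeq2, IL-27 called 1 gene of all in microglia in place of 0, 21 in Muller glia in place of 5, 21 in the whole retina in place of 0 and 8 in the other 9 types in place of 2. DESeq2 also called 272 genes of all in place of 515 between the microglial classes, with 13 higher and 0 lower list genes in place of 27 and 1, and 3552 in place of 5630 for the saline-enriched cluster, with 12 higher and 11 lower list genes in place of 25 and 18. Without the filter on low counts, calls came to 29 in microglia, 104 in Muller glia with 1 list gene, 1 in the whole retina, 203 in the other types, 26 in place of 2 for the interaction and 843 between the classes. In that setting Muller log2FC values were -0.0066 for Psap and -0.0052 for Gpr37l1, Grn in the saline-enriched cluster was -0.040 and Ctsb there passed (-0.38, adjusted p = 0.0439 by edgeR). Library totals gave 3 genes in Muller glia, 6 lower list genes in place of 15 between glial types, and a call for Sort1 in the saline-enriched cluster (0.39, adjusted p = 0.0176 by edgeR). Clustering at resolution 0.5 gave -0.011 for Psap and -0.0056 for Gpr37l1 in Muller glia, a 1% mitochondrial limit gave -0.031 for Gpr37l1, and keeping doublets gave -0.20 for Sort1 in microglia. Summing all nuclei gave 8 genes for the interaction, with 0.036 for Ctsd, 0.032 for Ctsb and 0.021 for Lamp1. With the saline-enriched cluster counted as Muller glia, an alternative chosen after seeing the data, Gpr37 was 0.13 and Ctsd -0.049. Between the microglial classes, thinning gave 2 lower list genes, and a cut at 1 gene gave 17 higher and 0 lower.

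Leaving out 1 library at a time moved the genes called by IL-27 from 0 to 2 in microglia, 0 to 7 in Muller glia (0 without saline replicate 1), 0 to 1 in the whole retina, 0 to 13 in the other types (13 without IL-27 replicate 4, 0 without saline replicate 6) and 0 to 7 for the interaction. The log2FC ran in microglia from -0.085 to 0.32 for Sort1, -0.16 to 0.23 for Ctsd and -0.060 to 0.19 for Lamp1. In Muller glia it ran from -0.065 to 0.082 for Psap, -0.16 to 0.081 for Gpr37, -0.19 to 0.22 for Gpr37l1 (below 0 without saline replicate 1) and -0.12 to 0.33 for Ctsd. In the whole retina it ran from -0.019 to 0.15 for Psap and -0.034 to 0.26 for Ctsd (below 0 without IL-27 replicate 5), -0.13 to 0.084 for Gpr37 and -0.019 to 0.40 for Gpr37l1. The interaction ran from -0.044 to 0.20 for Grn, -0.16 to 0.036 for Ctsd, -0.10 to 0.035 for Ctsb and -0.13 to 0.024 for Lamp1. Between the microglial classes, 283 to 495 genes were called, with 15 to 24 higher and 0 to 1 lower list genes. The call of Arsb was lost without saline replicate 1, 2 or 6 or IL-27 replicate 10. Lamp1 in the saline-enriched cluster ran from -0.042 to 0.40. The difference in the share of Psap UMIs ran from -0.34 to 0.12 percentage points in HC and from -0.16 to 0.16 in astrocytes.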
